A study of Mus musculus with 10 samples.

Results

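Granins and neuropeptide-processing enzymes are the proteins that fill the dense-core vesicles of neurons and cut peptide precursors into active peptides. The 10 genes examined here were chosen by symbol from knowledge of this pathway, with earlier results of these data known. They are Chga, Chgb, Scg2, Scg3, Vgf, Pcsk1, Pcsk2, Scg5, Pcsk1n and Cpe, and all 10 were among the 20483 genes of the deposited table. They were followed in the nucleus accumbens, with 5 libraries of captured tissue from its lateral shell and 5 from its medial shell. This nucleus belongs to the ventral striatum. All 10 libraries came from wild-type (WT) mice. The labels give neither age nor treatment. They call the libraries of each region biological replicates, but do not say whether each library came from its own animal. The p-values therefore measure only the spread between these libraries, of which the technical part is unknown. The labels call the material neural cells, but it is a captured mixture of cell types, in which fewer cells of a type and less RNA per cell cannot be told apart.

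In dense-core vesicles, precursors condense with acidic granins in the trans-Golgi network, and the maturing vesicle is released on calcium entry. Prohormone convertases cut the precursors after pairs of basic residues, and carboxypeptidase E trims the basic residues left behind. The convertases have dedicated binding proteins that help them fold or hold them inactive. Medium spiny neurons of the striatum make several peptides this way, among them enkephalin, dynorphin and substance P.

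Promoter sequence was available from RefSeq (GRCm38.p6) for 8 of the 10 genes, in windows of 250 bases before and 50 after the annotated start, and not for Vgf or Cpe. The windows were searched on both strands for TGACGTCA, the palindromic cyclic AMP response element (CRE) bound by CREB-family factors, and for TGACG, its shorter core, which lies within the full element on each strand. The full element was present in the windows of 3 members, Scg2, Chgb and Pcsk1, and in 1.79% of all 32851 windows in the table. At least the core was present in 7 of the 8 members with a window, all but Pcsk1n, and in 20.8% of all windows. The members were chosen by pathway, so these counts cannot be read as enrichment. The stretches are shown because the full element is held by Scg2, the member that differed between the regions, and also by Chgb and Pcsk1, which did not pass the test. Each is written 5′ to 3′ on the strand of its gene, with the match in capitals. For genes with several core matches the one farthest upstream is given.
Scg2: gctgagccggTGACGTCAgcgtggaatg
Chgb: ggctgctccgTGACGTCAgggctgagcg
Pcsk1: caggtagatcTGACGTCAagagatggct
Chga: ggcggtcctaTGACGtaatttcctg
Scg3: gctgggtcgcTGACGccatcctcac
Scg5: aggaggtaaaTGACGttcatagggg
Pcsk2: ggcgggcgcgCGTCAcccgggctgg

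The Scg2 stretch lies at chr1:79440077-79440104 on the minus strand, the Chgb stretch at chr2:132781560-132781587 on the plus strand and the Pcsk1 stretch at chr13:75089769-75089796 on the plus strand. The first base of the full element stood 68 bases before the RefSeq start in Scg2, 72 bases before it in Chgb and 78 bases before it in Pcsk1. The core of Chga began 44 bases before its start (chr12:102554887-102554911, plus strand), that of Scg3 30 bases before (chr9:75684072-75684096, minus strand) and that of Scg5 175 bases before (chr2:113829252-113829276, minus strand). In Pcsk2 the core lay on the opposite strand, beginning 34 bases before the start (chr2:143546089-143546113). GENCODE starts the Scg2 gene 94 bases and the Chgb gene 364 bases upstream of the RefSeq start, so by that annotation both stretches lie inside the gene, while the other 5 stretches lie outside their genes. These are matches of letters, not measured binding sites.

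The libraries listed between 15402 and 17003 genes above 0, and mitochondrially encoded RNA was 26.3% to 35.3% of lateral and 23.5% to 32.5% of medial libraries by TPM, a transcript abundance scaled to gene length and to a fixed total per library. Lateral replicate 5 and medial replicate 2 stood apart from the other libraries by AY036118, at 1.38 and 1.42 TPM where the others had at least 82500 TPM, so results that rest on them are also given without them. The tissue label was checked against neuron and striatal genes. Summed TPM of 12 general neuron genes ran from 1737 to 2397 in lateral and from 1840 to 2695 in medial libraries, and that of 14 striatal projection neuron genes from 2424 to 3642 in lateral and from 2086 to 3368 in medial libraries. Of 7 cortical glutamatergic genes 2 were in the table used here, Slc17a6 and Neurod6, with a sum of at most 3.31 TPM in lateral libraries and 1.55 TPM in medial ones. Over the 15596 genes tested, the median log2 fold change, lateral minus medial of log2(TPM + 1), was -0.21, and 68.7% of genes had lower lateral values, so single genes are read against that shift.

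Of the 10 genes, 1 differed between the regions, Scg2, which was lower in the lateral shell. The other 9 did not pass the test in either direction. Scg2 encodes secretogranin II, an acidic granin that is the precursor of the peptide secretoneurin (ENSMUSG00000050711.7, chromosome 1, 79434669 to 79440120, minus strand, GRCm38). It stood at 413, 193, 328, 339.7 and 353 TPM in lateral replicates 1 to 5 and at 539, 633, 679.6, 631 and 610.2 TPM in medial replicates 1 to 5. Every medial library lay above every lateral one, and the lowest value was that of lateral replicate 2. The means were 325 ± 80.6 TPM in lateral libraries and 618 ± 51.3 TPM in medial ones (SD, n = 5 each). The log2 fold change was -0.96 (SE 0.19, 95% interval -1.37 to -0.56, limma adjusted p = 0.0252), or -0.76 relative to the median of all genes. All 10 members passed the filter on low values and were tested, and 1 was called. Of all genes tested 1.096% were called lower in lateral, 0.385% higher in lateral and 1.48% in either direction. Scg2 was also the only one of the 10 with an unadjusted p under 0.05, which 15.4% of all genes had, and the only one whose groups did not overlap, as in 3.39% of all genes towards lower lateral values and 4.25% in either direction.

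**Figure D1:**
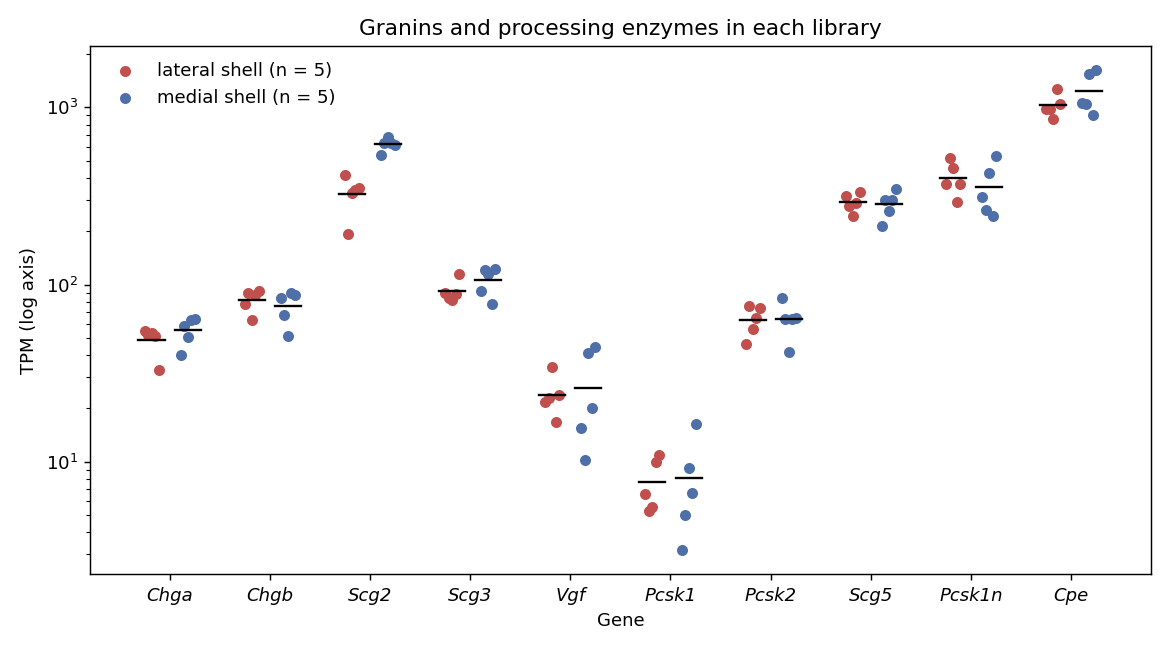
TPM of the 10 genes in each library on a log axis, with lateral libraries on the left and medial libraries on the right of each gene (points, n = 5 each) and black lines at the means. The lateral points of Scg2, from 193 to 413 TPM, all lie below the medial ones, from 539 to 679.6 TPM, and the groups overlap for the other 9 genes.

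An exact two-sided permutation test on Scg2 alone gave p = 0.00794, the smallest that 5 against 5 libraries allow. The test was run on all 10 genes, and the p of the others ran from 0.246 for Cpe to 0.960 for Pcsk2. The call of Scg2 was close to the threshold. It was lost without lateral replicate 4 (limma adjusted p = 0.0501), medial replicate 2 (0.0711), medial replicate 3 (0.0631), medial replicate 4 (0.0621) or medial replicate 5 (0.0506), while its log2 fold change stayed between -1.06 and -0.79 over all fits without 1 library. Without lateral replicate 5 and medial replicate 2 together it was -0.99 (adjusted p = 0.123), and under median-ratio scaling it was -0.75 (adjusted p = 0.0977).

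Some cell-type markers differed with region too. Summed TPM of 10 microglia genes was 426 to 666 in lateral and 202 to 432 in medial libraries, and that of 10 oligodendrocyte genes 339 to 1020 in lateral and 144 to 509 in medial libraries. Summed TPM of 10 GABAergic interneuron genes was 490 to 5656 in lateral and 28.3 to 1704 in medial libraries. That sum mainly followed Sst and Npy, with means of 1146 and 1258 TPM in lateral and 191 and 199.5 TPM in medial libraries. No other gene of the list averaged above 18.5 TPM in lateral or 10.3 TPM in medial libraries. Of the 9 genes tested, 8 had a positive log2 fold change (list median 1.29) and Calb2 alone a negative one (-1.36). The direction of the sum was thus shared by most of the list, while its size was mainly that of Sst and Npy. No marker in these lists was at 0 in every library, and of the 3 lists 3 microglia genes passed over all genes, all higher in lateral (C1qa, Tmem119 and Ctss). Without 1 library at a time, C1qa and Tmem119 kept their calls only without medial replicate 1 or 3, and Ctss only without lateral replicate 3 or medial replicate 1 or 3 (limma adjusted p up to 0.103). An unadjusted limma p under 0.05 was found for 9 of the 10 microglia genes, 4 of the 10 oligodendrocyte genes and 4 of the 9 interneuron genes tested. Over all genes tested that share was 15.4%. The marker lists were also written with earlier results of these data known, so such counts cannot be read as enrichment. Among the neuron lists, 0 of the 12 general genes passed in limma, with an unadjusted p under 0.05 for 2. Of the 14 striatal projection neuron genes 1 passed, Gad2, which encodes a glutamate decarboxylase of GABA synthesis and was lower in lateral in each fit without 1 library (187 ± 24.3 TPM in the lateral libraries, 349.8 ± 53.2 TPM in medial libraries, SD, n = 5 each). The part of these genes in the Scg2 result was not tested. Taken as a percentage of the summed general neuron genes, Scg2 was 8.47% to 19.0% in lateral and 22.6% to 36.2% in medial libraries, and of the summed striatal projection neuron genes 5.31% to 17.0% in lateral and 17.7% to 32.6% in medial libraries. Neither percentage overlapped between the regions, but the second came close, at 17.0% against 17.7%. The share of all genes that separate on such percentages was not computed.

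The other granins had overlapping values. Chga encodes chromogranin A, which drives granule formation and is the precursor of several peptides. It stood at 54.8, 51.8, 53.3, 51.2 and 33.1 TPM in lateral replicates 1 to 5 and at 40.2, 58.6, 50.9, 63.2 and 63.8 TPM in medial replicates 1 to 5. Lateral replicate 5 was the low value, and the other lateral libraries fell within the medial range. Its log2 fold change was -0.18 (95% interval -0.59 to 0.24, limma adjusted p = 0.702).

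Chgb, encoding chromogranin B, was at 77.7, 89.7, 63.2, 87.1 and 92.1 TPM in the 5 lateral libraries and 84.3, 67.3, 51.0, 89.6 and 87.1 TPM in the 5 medial ones, each in order of replicate. The lowest library was medial replicate 3, which had the highest Scg2. The log2 fold change of Chgb was 0.13 (95% interval -0.28 to 0.53, limma adjusted p = 0.789). Scg3, encoding secretogranin III, which binds chromogranin A and helps to anchor granins to cholesterol-rich membrane, was at 89.2, 83.7, 82.0, 88.9 and 115 TPM in the 5 lateral libraries and 92.0, 121, 115, 77.2 and 123 TPM in the 5 medial ones, each in order of replicate. Lateral replicate 5 stood above the other 4 lateral libraries and within the medial range. Its log2 fold change was -0.19 (95% interval -0.56 to 0.18, limma adjusted p = 0.641), close to the median of all genes. Scg3 overlaps Gm37871 on the other strand. Whether counting used strand is not stated, so reads of such pairs may be mixed.

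Vgf, a neurotrophin-inducible granin whose fragments act as peptides, was the most variable granin. It was at 21.8, 22.9, 34.2, 16.7 and 23.9 TPM in the 5 lateral libraries and 15.5, 10.2, 41.2, 20.04 and 44.3 TPM in the 5 medial ones, each in order of replicate. Medial replicates 3 and 5 were high and medial replicate 2 low, so the medial libraries spanned the whole lateral range. The coefficient of variation was 26.7% in lateral and 59.0% in medial libraries, and the log2 fold change was 0.037 (95% interval -0.74 to 0.82, limma adjusted p = 0.974). For Scg2 the coefficient of variation was 24.8% in lateral and 8.30% in medial libraries.

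**Figure D2:**
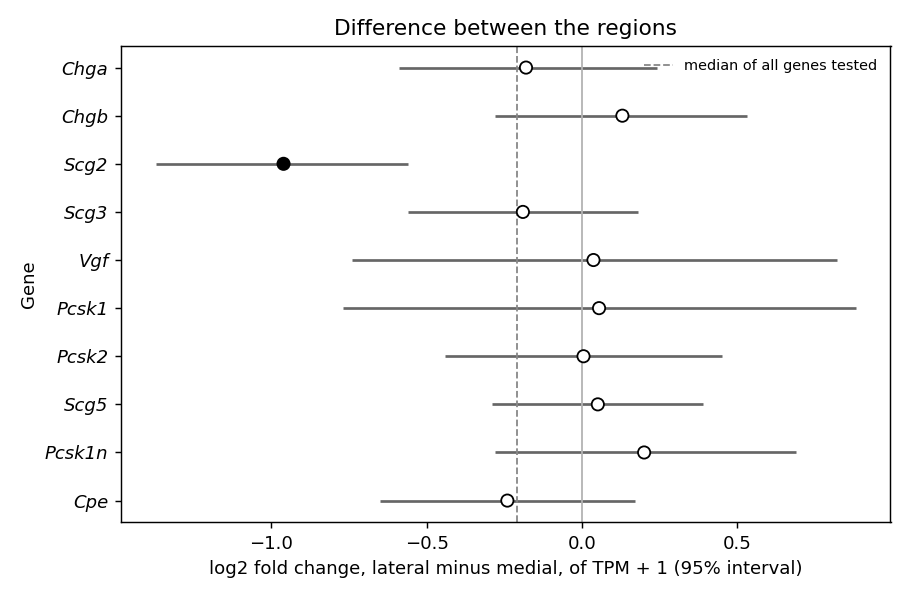
Log2 fold change of each gene, lateral minus medial of log2(TPM + 1), with its 95% interval from limma (n = 5 libraries each), filled where the adjusted p was under 0.05. Scg2 stands at -0.96, and the intervals of the other 9 genes include both 0 and the dashed median of all genes tested, -0.21.

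Among the convertases, Pcsk1 and Pcsk2 differed more from each other in level than between regions. Pcsk1 encodes the convertase PC1/3, which makes the early cuts in many precursors. It had the lowest level of the 10 genes, at 6.58, 5.26, 5.58, 9.99 and 10.98 TPM in the 5 lateral libraries and 3.17, 4.98, 9.21, 6.67 and 16.4 TPM in the 5 medial ones, each in order of replicate. Medial replicates 1 and 5 were the extremes of both regions. Its log2 fold change was 0.055 (95% interval -0.77 to 0.88, limma adjusted p = 0.963). Pcsk2, encoding the convertase PC2, which makes later cuts, was at 46.1, 76.1, 56.3, 64.9 and 73.9 TPM in the 5 lateral libraries and 84.5, 64.0, 41.8, 63.9 and 64.5 TPM in the 5 medial ones, each in order of replicate. The mean was 63.5 ± 12.5 TPM in lateral libraries and 63.7 ± 15.1 TPM in medial ones (SD, n = 5 each), and the 95% interval of the log2 fold change was -0.44 to 0.45 (limma adjusted p = 0.995). Pcsk2 overlaps the genes Pcsk2os1 and Pcsk2os2 on the other strand.

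At the RNA level, the genes of the convertase-binding proteins stood above those of their enzymes, and protein was not measured. Scg5 encodes the protein called 7B2, which PC2 needs to mature and whose C-terminal peptide inhibits it. It was at 317, 278, 243, 288 and 334 TPM in the 5 lateral libraries and 213, 300, 259, 301 and 347 TPM in the 5 medial ones, each in order of replicate, with a log2 fold change of 0.051 (95% interval -0.29 to 0.39, limma adjusted p = 0.908). Pcsk1n encodes proSAAS, which inhibits PC1/3. It was at 371, 517, 455, 293 and 368 TPM in the 5 lateral libraries and 312, 264, 427, 245 and 535 TPM in the 5 medial ones, each in order of replicate. Its log2 fold change of 0.20 (95% interval -0.28 to 0.69, limma adjusted p = 0.710) was the highest of the 10, or 0.41 relative to the median of all genes. The values of both genes overlapped widely between the regions. Pcsk1n overlaps Eras on the other strand.

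Cpe encodes carboxypeptidase E, the enzyme that removes C-terminal lysine and arginine after the convertases have cut. It was the most abundant of the 10 genes, at 973, 984, 859, 1269 and 1047 TPM in the 5 lateral libraries and 1052, 1042, 1552, 911 and 1626 TPM in the 5 medial ones, each in order of replicate. By its mean over all libraries it ranked 54 of 20483 genes. Medial replicates 3 and 5 were above all other libraries, and the log2 fold change was -0.24 (95% interval -0.65 to 0.17, limma adjusted p = 0.582).

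In order of mean level the lateral shell had Cpe, Pcsk1n, Scg2, Scg5, Scg3, Chgb, Pcsk2, Chga, Vgf and Pcsk1. The medial shell had Cpe, Scg2, Pcsk1n and then the same sequence. In lateral libraries Scg2 overlapped in range with its neighbours Pcsk1n and Scg5. In medial libraries Scg2 overlapped with neither of its neighbours, Cpe above it and Pcsk1n below it. Neighbours from Scg3 down to Vgf overlapped in both regions. Together the 10 genes took 0.218% to 0.251% of the TPM of lateral libraries and 0.241% to 0.352% of medial ones. Medial replicate 5 had the highest value of 7 of the 10 genes, and its median-ratio size factor, 1.26, was also the highest, against 0.892 to 1.01 in lateral and 0.947 to 1.07 in the other medial libraries. The part of that library's general level in those values was not tested. For Scg2 it ranked below 3 other medial libraries.

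**Figure D3:**
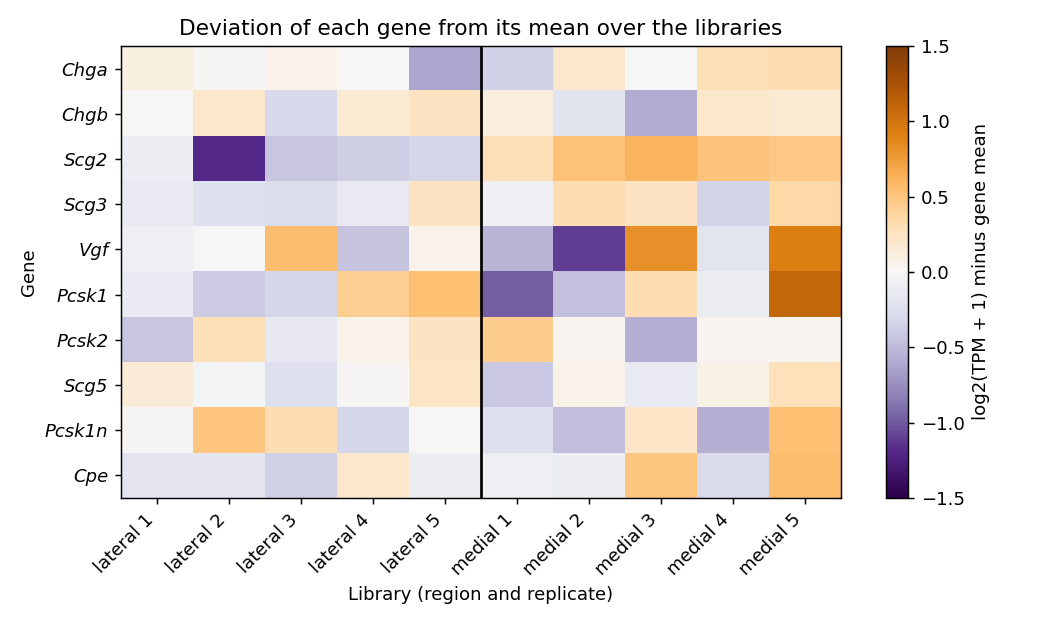
Deviation of log2(TPM + 1) of each gene (rows) in each library (columns) from the mean of that gene over the 10 libraries, lateral libraries left of the black line and medial ones right of it. Scg2 is below its mean in all 5 lateral libraries and above it in all 5 medial ones, and medial replicate 5 is the highest library for 7 genes.

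A ratio of TPM between members within a library does not change with a scaling of the whole library, and 4 ratios were tested, as log2 ratios of TPM + 1, to which the added 1 brings some dependence on scale for low genes such as Pcsk1. The ratio of Scg2 to Chgb, both granins of the vesicle matrix, was 5.31, 2.16, 5.19, 3.90 and 3.83 in lateral and 6.39, 9.40, 13.3, 7.04 and 7.005 in medial replicates 1 to 5. No lateral library reached the lowest medial one. The log2 ratio of TPM + 1 averaged 1.95 ± 0.52 in lateral and 3.04 ± 0.43 in medial libraries (SD, n = 5 each), a difference of -1.09 (exact permutation test, two-sided, p = 0.00794 and 0.0317 after adjustment over the 4 ratios). Without medial replicate 3 the difference was -0.92 (exact permutation p = 0.0238, adjusted p = 0.0952). Because the ratio contains the Scg2 values, its test is not independent of the test of Scg2 alone.

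The ratios of the binding proteins to their convertases, and of the convertases to each other, overlapped. Scg5 exceeded Pcsk2 by 3.65 to 6.87 times in lateral and 2.52 to 6.19 times in medial libraries (difference of log2 ratios 0.046, exact permutation p = 0.889, adjusted p = 0.921). Pcsk1n exceeded Pcsk1 by 29.3 to 98.3 times in lateral and 32.6 to 98.5 times in medial libraries (difference 0.15, exact permutation p = 0.714, adjusted p = 0.921). Pcsk2 exceeded Pcsk1 by 6.50 to 14.5 times in lateral and 3.92 to 26.7 times in medial libraries (difference -0.050, exact permutation p = 0.921, adjusted p = 0.921). The spread of the last ratio was larger in medial libraries, with an SD of 1.01 on the log2 scale against 0.45 in lateral ones. As a description, the ratio of Scg2 to each of the other 9 members was also formed. It did not overlap between the regions against 3 of them, Scg3, Scg5 and Chgb, and overlapped against the other 6. The ratio to Scg5, for instance, was 0.697 to 1.35 in lateral and 1.76 to 2.63 in medial libraries, and that to Cpe was 0.197 to 0.424 in lateral and 0.375 to 0.692 in medial libraries.

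**Figure D4:**
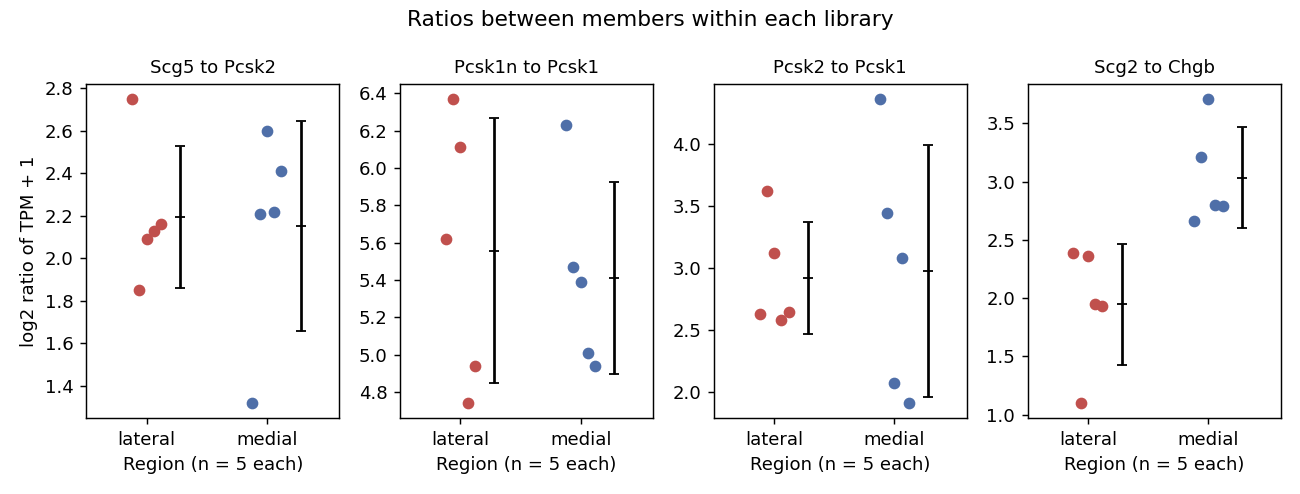
Log2 ratio of TPM + 1 between pairs of members within each library (points), lateral left and medial right in each panel, with the mean and SD beside the points (n = 5 each). The groups are apart for Scg2 to Chgb, with means of 1.95 in lateral and 3.04 in medial libraries, and overlap in the other 3 panels.

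The rest of the secretory pathway was read from lists of genes by role. Of 6 tested convertases outside the 10 genes, none passed in limma at an adjusted p under 0.05 and 1 had an unadjusted p under 0.05. Their median log2 fold change was 0.30. Furin, the convertase of the general secretory route, averaged 2.97 TPM in lateral libraries and 2.11 TPM in medial ones. None of 8 tested trimming, amidation and cyclization enzymes passed in limma, and 0 had an unadjusted p under 0.05 (median -0.19). Pam, which amidates the C-terminus of peptides, averaged 22.8 TPM in lateral libraries and 23.1 TPM in medial ones (limma adjusted p = 0.842), and the cathepsin gene Ctsb 164 TPM in the lateral and 147 TPM in the medial shell.

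Among 24 tested genes of dense-core vesicle biogenesis and release, 2 passed, both lower in lateral, and the median was -0.11. An unadjusted p under 0.05 was found for 6 of the 24. Over all genes tested 1.48% were called and 15.4% had an unadjusted p under 0.05, which holds for each list here. The lists were written with earlier results of these data known, so their counts cannot be read as enrichment over these shares. Baiap3, encoding a Munc13-family protein of dense-core vesicle exocytosis and recycling, was at 5.12, 1.68, 8.74, 3.51 and 3.31 TPM in the 5 lateral libraries and 11.02, 31.4, 54.8, 19.8 and 35.2 TPM in the 5 medial ones, each in order of replicate. The groups did not overlap. Its log2 fold change was -2.47 (SE 0.43, limma adjusted p = 0.0135), with -1.81 as the smallest size over the alternatives, at a pseudocount of 5. Baiap3 kept its call in each fit without 1 library, and without lateral replicate 5 and medial replicate 2 together the call was lost (-2.36, adjusted p = 0.103). Hap1, which encodes a huntingtin-associated transport protein, was the other (15.9 ± 6.42 TPM in lateral, 49.2 ± 16.2 TPM in medial libraries, SD, n = 5 each). Its log2 fold change was -1.59 (limma adjusted p = 0.0247). It lost its call without lateral replicate 2, medial replicate 2, 3 or 5 (adjusted p from 0.0538 to 0.0711), and it was known from earlier results of these data to differ.

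Other members of that list did not pass. Syt5, a vesicle calcium sensor, was at 134, 148, 123, 169.5 and 193 TPM in the 5 lateral libraries and 148, 289.6, 281, 285 and 295 TPM in the 5 medial ones, each in order of replicate. Of the medial libraries 4 lay above every lateral one and medial replicate 1 lay among them (log2 fold change -0.73, 95% CI -1.17 to -0.28, limma adjusted p = 0.110). Ptprn2, encoding a dense-core vesicle membrane phosphatase-like protein, averaged 4.31 ± 2.06 TPM in lateral libraries and 9.66 ± 4.12 TPM in medial ones (limma adjusted p = 0.2002). Its relative Ptprn averaged 138 TPM in lateral libraries and 152 TPM in medial ones (limma adjusted p = 0.682).

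Of 10 tested peptide-degrading enzymes, none passed in limma and 1 had an unadjusted p under 0.05 (median -0.19). Ide, encoding insulin-degrading enzyme, had the smallest p of the list, at 8.75 ± 1.53 TPM in lateral libraries and 17.2 ± 6.03 TPM in medial ones (log2 fold change -0.85; the adjusted p in limma was 0.152). The endothelin-converting enzyme gene Ece1 was at 18.1 to 28.7 TPM in lateral libraries and 14.6 to 21.6 TPM in medial ones.

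**Figure D5:**
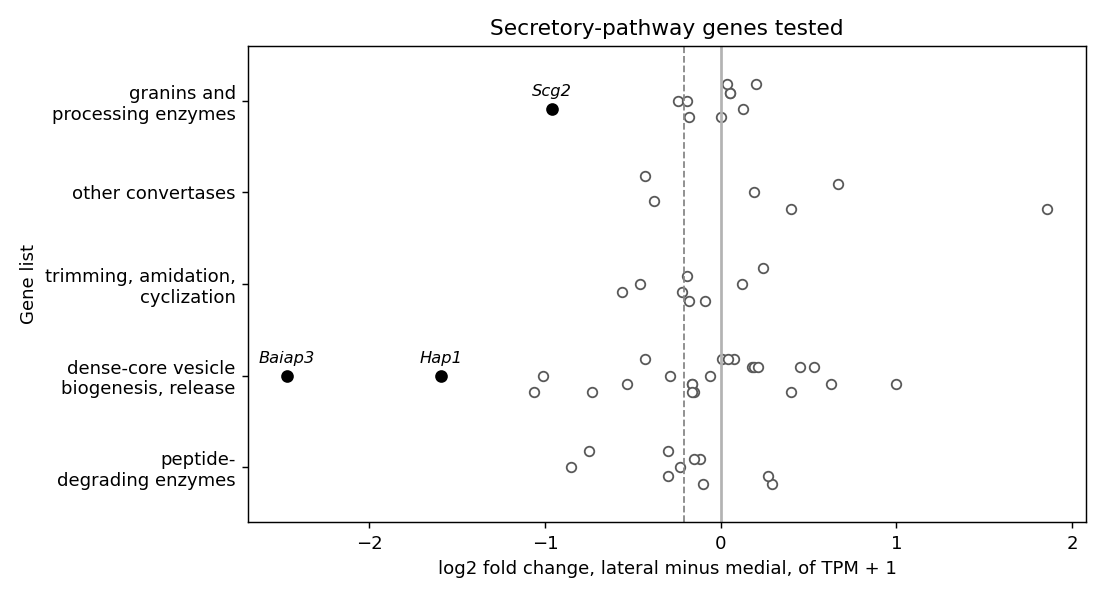
Log2 fold change of each tested gene, lateral minus medial of log2(TPM + 1), by list (one point a gene, n = 5 libraries each), filled and named where the adjusted p was under 0.05; vertical spread within a list only separates points. Filled points are Scg2 at -0.96, Baiap3 at -2.47 and Hap1 at -1.59, and the dashed line is the median of all genes tested, -0.21.

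Of 14 tested genes for the peptide precursors that these proteins carry, 1 passed, Cartpt, lower in lateral (48.4 ± 50.4 against 649 ± 202 TPM in medial, limma adjusted p = 0.0130), and the median log2 fold change was 0.18. An unadjusted p under 0.05 was found for 8 of the 14, and none was called higher in lateral. The list sum was 4001 to 9465 TPM in lateral libraries and 3023 to 6428 TPM in medial ones, so the groups overlapped. Sst and Npy had the next smallest p and did not pass (Sst 1146 ± 921 TPM in the lateral and 191 ± 357 TPM in the medial shell, limma adjusted p = 0.0890). Of 17 tested activity-response genes, 1 passed, Rasd1, lower in lateral, and the list median was -0.14. An unadjusted p under 0.05 was found for 9 of the 17. Rasd1, a Ras-family gene, was at 4.42, 1.55, 0.423, 0 and 0 TPM in the 5 lateral libraries and 9.48, 9.59, 17.9, 11.8 and 8.60 TPM in the 5 medial ones, each in order of replicate. The groups did not overlap. With lateral libraries at 0, its log2 fold change of -2.74 (limma adjusted p = 0.0141) depended on the pseudocount, at -4.42 with 0.1 and -1.41 with 5. Its call was lost with a pseudocount of 0.1 (adjusted p = 0.0555) and without lateral replicate 5 and medial replicate 2 together (0.0903).

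Genes with a profile most like that of Scg2 were sought among 4272 genes averaging 20 TPM or more, by the root mean square difference of log2(TPM + 1) over the 10 libraries after centring each gene. The closest 3 were Mrpl40 (0.238), Cfl2 (0.241) and Sptssa (0.248). Mrpl40 encodes a mitochondrial ribosomal protein, Cfl2 a cofilin and Sptssa a small subunit of serine palmitoyltransferase. Cfl2 averaged 21.1 ± 4.89 TPM in lateral libraries and 40.0 ± 4.91 TPM in medial ones, and Sptssa 59.2 ± 11.6 TPM in the lateral and 107 ± 13.3 TPM in the medial shell (SD, n = 5 each). Since the search was for likeness to Scg2, these values are a description. By the same measure the nearest of the other granins and enzymes was Scg3 at 0.491, at rank 704 in closeness, and the farthest was Vgf at 0.808.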

How the data were processed

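Complementary DNA of captured tissue was made with Geo-seq and libraries with a TruePrep kit, per the labels' protocols. The authors deposited TPM, scaled to 1000000 per sample, for 20483 genes in 10 samples. Named in the submitters' processing notes, with no roles, are HISAT2 2.1.0, featureCounts 1.6.3, StringTie 1.3.4, fastp 0.20.0 and the build GRCm38 (mm10). For the annotation, strand use and gene filter, nothing is given in the sources used here. TPM keeps no depth, so the depth of each library is unknown and no counting interval can be given.

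Lateral was compared with medial by limma 3.58.1 in R 4.3.3 (mean-variance trend) on log2(TPM + 1), over 15596 genes with at least 1 TPM in at least 5 samples; genes with a Benjamini-Hochberg adjusted p below 0.05 were called, and this scale understates changes of low genes. Exact permutation tests ran over all 252 divisions. Sums of the marker lists (neurons, projection neurons, interneurons, glia, endothelium) described the tissue. Gene coordinates came from GENCODE M21, promoters from RefSeq. The fits were tested on simulated data. Figures used matplotlib 3.10.9. Members and lists were chosen with earlier results of these data known. The rule for named genes took all members, the passing genes and up to 4 smallest p of each list outside the markers, of which the text names part (a result withheld for evaluation is not reported here), and the 3 profiles most like each passing member. Furin, Pam, Ptprn and the passing marker genes fall outside it and were chosen after their values were seen. Alternatives changed the pseudocount, filter, scaling, variance model, weights, replicate block and libraries included.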

Additional observations from a re-analysis of the deposited data

Results flagged for a closer look

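Among 28 groups of 5 values (the 10 genes and the 4 ratios in each region), 3 held a library far from the others, where chance gives about 1 in 20 groups. Chga in lateral replicate 5 was at 33.1 TPM, against 51.2 to 54.8 TPM in the other lateral libraries. Scg3 in the same library was at 115 TPM, against 82.0 to 89.2 TPM. The ratio of Scg5 to Pcsk2 in lateral replicate 1 was 6.87, against 3.65 to 4.52 in the other lateral libraries.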

How the results depend on the processing

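Scg2 had a lower lateral value under all 22 alternatives, with log2 fold changes from -1.06 to -0.75 and adjusted p from 0.0180 to 0.123. Of the 10 genes 0 were called under median-ratio scaling, after rescaling without mitochondrial and haemoglobin genes, without a mean-variance trend, with the replicate block and without lateral replicate 5 and medial replicate 2 together, and 0 to 1 without a single library. The genes called numbered 231, against 149 with a pseudocount of 0.1, 145 without the trend, 64 with the replicate block, 43 without both libraries and 84 to 257 without a single library. The share of calls lower in lateral was 74.0%, and it was 48.2% under median-ratio scaling and 53.5% under quantile normalization. Same-numbered libraries did not deviate together (correlations -0.0534 to 0.0417 across genes, and 0 of 10 libraries were closest to their own number), and the labels do not say whether a shared number marks a shared animal or day. With the block, Rasd1 had an adjusted p of 0.0598 and Scg2 one of 0.0740, and the Scg2 to Chgb difference stayed -1.09 with an exact permutation p of 0.0625 (adjusted 0.250), the smallest that 5 pairs allow being 0.0625. That ratio ran from -1.20 to -0.88 without single libraries and was -1.04 (adjusted p = 0.114) without both libraries.

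Members that did not pass changed sign in places. Under median-ratio scaling Scg3 was at 0.020 and Chga at 0.029. Without single libraries the ranges were -0.047 to 0.13 for Scg5, -0.006 to 0.22 for Chgb, -0.23 to 0.27 for Vgf, -0.18 to 0.33 for Pcsk1 and -0.14 to 0.11 for Pcsk2. Without both libraries Vgf was at -0.24, Pcsk1 at -0.18 and Pcsk2 at -0.045. The differences of log2 ratios ran from -0.16 to 0.16 for Scg5 to Pcsk2, from -0.054 to 0.35 for Pcsk1n to Pcsk1 and from -0.32 to 0.30 for Pcsk2 to Pcsk1, which was 0.14 without both libraries. The cause of these changes was not tested. The same alternatives were run on Baiap3, Hap1, Cartpt, Rasd1, Cfl2, Sptssa, Gad2, C1qa, Tmem119 and Ctss, a choice made after seeing the data, and none changed direction. Without both libraries all 10 lost their calls (adjusted p from 0.0521 to 0.165), in a fit of fewer samples. Under median-ratio scaling Cfl2 and Sptssa lost their calls (limma adjusted p = 0.114 and 0.0629), and the others kept theirs.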

Other observations

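Genes of astrocytes, cholinergic interneurons and endothelium were summed as a description of the tissue. The sum of 10 astrocyte genes was 934 to 1259 TPM in lateral and 993 to 1388 TPM in medial libraries, that of 6 cholinergic interneuron genes 3.87 to 223 TPM in lateral and 1.38 to 175 TPM in medial libraries, and that of 6 endothelial genes 151 to 350 TPM in lateral and 165 to 262 TPM in medial libraries. None of the genes in these 3 lists passed in limma over all genes. An unadjusted p under 0.05 was found for 4 of the astrocyte genes and 0 of the others, against 15.4% of all genes tested.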
